A study of Mus musculus with 2 samples.

Results

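The Bcl2 family genes were examined in testes of 9-day-old (P9) mice, when most germ cells are spermatogonia and the first of them prepare for meiosis. The 10 members, Mcl1, Bcl2l1, Bcl2l2, Bcl2, Bok, Bak1, Bid, Bad, Bcl2l11 and Bik, were chosen by gene symbol from 39695 gene entries, by a rule that uses no measured value, though with earlier results of these data known. Symbols came from matching the Ensembl identifiers to the GENCODE M21 annotation of the mouse genome build GRCm38. All 10 were found and all had a mean RPKM (reads per gene, scaled to gene length and to the reads counted in the library) of at least 1 over both libraries, as did 14831 genes in all. The data comprised 2 RNA-seq libraries, 1 of control and 1 of Bcas2F/-;Vasa-Cre testes. Both genotypes carried a floxed and a deleted allele of Bcas2, which encodes a splicing factor, so the controls also had a single functional allele. The mutants carried in addition Vasa-Cre, a transgene whose recombinase acts in germ cells and leaves the floxed allele of Bcas2 intact in somatic cells. The labels give the strain as C57BL/6, whereas the methods of the study describe a mixed background. The number of mice behind each library is not given in the sources used here. Since RNA came from whole testes, fewer cells of a type and less RNA per cell cannot be told apart.

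Proteins of the Bcl2 family decide whether the outer membrane of the mitochondrion is opened, the step that releases cytochrome c and starts the caspase cascade of apoptosis. Prosurvival members hold the effectors in check, effectors form pores in the membrane, and BH3-only members bind the prosurvival proteins or the effectors through a short helix, the BH3 domain. In the postnatal testis a wave of germ cell apoptosis accompanies the first round of spermatogenesis, and the balance between prosurvival and proapoptotic members is known to set its extent.

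The coding stretches around the BH3 core are shown because this short helix is what the binding partners of the family recognise, and because genes of all 3 roles hold it. Each stretch holds 45 bases of the coding strand of the GENCODE transcript used, 5′ to 3′, and the capitals mark the 6 codons of the core. The core was searched in the translated coding sequence as leucine, any 3 residues, glycine and aspartate. It was found in 8 members, and in 13.4% of 21528 coding genes by these letters. Of 15 other family genes searched, 5 held the core, and the BH3-only genes Bbc3 and Bmf did not. In Bad it was located with the wider pattern of leucine, any 4 residues and aspartate, which 77.6% of coding genes hold, so that match alone does not mark a core. Neither pattern was found in Bcl2l2, which says only that these letters are not in its coding sequence. Positions are on GRCm38, and each stretch lies within a single coding exon except that of Bok.
Mcl1, chr3:95659421-95659465, plus strand, exon 1: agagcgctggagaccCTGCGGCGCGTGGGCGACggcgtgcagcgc
Bcl2l1, chr2:152829694-152829738, minus strand, exon 2: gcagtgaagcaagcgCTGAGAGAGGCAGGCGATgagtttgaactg
Bcl2, chr1:106712572-106712616, minus strand, exon 1: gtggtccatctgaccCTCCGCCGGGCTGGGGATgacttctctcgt
Bok, chr1:93686642-93689173, plus strand, from exon 2 into exon 3 with the intron left out: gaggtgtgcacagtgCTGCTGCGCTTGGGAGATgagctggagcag
Bak1, chr17:27022528-27022572, minus strand, exon 4: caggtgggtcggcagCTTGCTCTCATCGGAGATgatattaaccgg
Bid, chr6:120897286-120897330, minus strand, exon 4: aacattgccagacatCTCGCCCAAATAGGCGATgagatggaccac
Bad, chr19:6950777-6950821, plus strand, exon 3: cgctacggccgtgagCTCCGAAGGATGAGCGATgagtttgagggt
Bcl2l11, chr2:128147135-128147179, plus strand, exon 3: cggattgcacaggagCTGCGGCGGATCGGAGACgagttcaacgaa
Bik, chr15:83543069-83543113, plus strand, exon 3: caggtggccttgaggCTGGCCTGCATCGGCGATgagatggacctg

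A second stretch is shown because it includes Bcl2l2 and is rare among coding genes. The BH1 region lines the groove in which a BH3 helix is held, and its core is the tetrapeptide asparagine, tryptophan, glycine and arginine. Among the 10 genes it was found in the 4 prosurvival members, Bcl2l2 included, and not in Bok, Bak1 or the 4 BH3-only genes. Its absence says only that these letters are not in the coding sequence searched, and not that a BH1 region is missing. The tetrapeptide does not separate the roles, since the effector Bax, which is not one of the 10, also held it. Of 15 other family genes searched, 4 held it, Bax and the prosurvival genes Bcl2a1a, Bcl2a1b and Bcl2a1d. Of all 21528 coding genes, 24 (0.111%) held it. Each stretch has 39 bases with the 4 codons of the tetrapeptide in capitals, read 5′ to 3′ on the coding strand of GRCm38.
Mcl1, chr3:95659835-95659873, plus strand, exon 2: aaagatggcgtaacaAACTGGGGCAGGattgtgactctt
Bcl2l1, chr2:152829562-152829600, minus strand, exon 2: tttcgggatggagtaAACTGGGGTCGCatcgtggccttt
Bcl2l2, chr14:54884640-54884678, plus strand, exon 3: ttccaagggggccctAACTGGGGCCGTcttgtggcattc
Bcl2, chr1:106712440-106712478, minus strand, exon 1: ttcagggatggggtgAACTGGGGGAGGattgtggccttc

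The targeted gene was examined first. In control testes Bcas2 stood at 39.5 RPKM (1410 reads) and in Bcas2F/-;Vasa-Cre testes at 25.7 RPKM (888 reads). Reads were recovered from the deposited values. The libraries behind them held 19918750 (control) and 19331687 (mutant) counted reads. Changes are given as the log2 ratio of RPKM + 1, mutant over control, which for Bcas2 was −0.605. The pseudocount of 1 understates the change of genes with a low RPKM. Intervals of the ratio of a gene are 95% Clopper-Pearson intervals of the log2 RPKM ratio without the pseudocount. For Bcas2 this interval ran from −0.75 to −0.50. Intervals of RPKM levels are exact 95% Poisson intervals, and those of summed RPKM use a normal approximation at 95%. Intervals cover counting error only, and with 1 library per genotype no difference has a replicate check or a p-value. Genes of like level serve as a further description of these libraries, as the range from the 5th to the 95th percentile of the log2 ratio over the 500 other genes nearest in mean RPKM.

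No Bcl2 family gene differed by 1.5-fold between the libraries. Of the 10 members, 0 were lower and 0 higher past 1.5-fold, against 1.69% of the 14831 genes lower and 1.57% higher. Past 2-fold the count of members was again 0, against 0.378% of genes lower and 0.425% higher. At these shares, a count of 0 among 10 genes does not set the members apart from other genes. The log2 ratio was below 0 in 6 members and above 0 in 4, with a range from −0.32 for Bik to 0.34 for Bcl2l2. Their median was −0.044, against 0.015 over all tested genes, whose log2 ratios had an SD of 0.259 and of which 46.3% were below 0. The counting interval lay above 0 for Bcl2l2 and Bcl2, below 0 for Bcl2l1 and Mcl1, and across 0 for the other 6. The upper bound of Mcl1 was −0.002, while its log2 ratio shifted by up to 0.028 with the scaling of RPKM values. Whether the interval of Mcl1 lies below 0 thus depends on the scaling. The bounds of the intervals, as fold changes, spanned 0.587 to 1.51 over the 10 members. A difference of 1.5-fold lay inside the interval of Bik and of Bcl2 and outside that of the other 8.

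**Figure D1:**
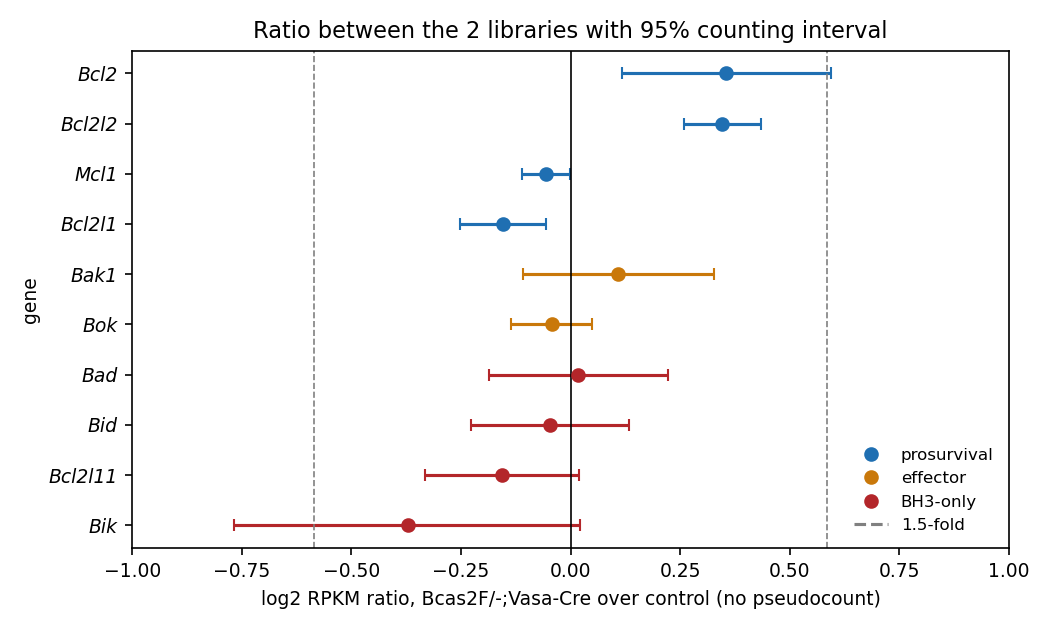
The log2 RPKM ratio without pseudocount (x axis) of the 10 Bcl2 family genes (y axis), Bcas2F/-;Vasa-Cre over control, 1 library each; bars are 95% counting intervals and dashed lines mark 1.5-fold. Bcl2 and Bcl2l2 lie above 0 with their intervals, Bcl2l1 and Mcl1 below 0, and the interval of Bik is the widest.

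The levels of the members spread over a wide range, and their order was nearly the same in both libraries. Mcl1 was highest and Bcl2 lowest in both. In the control the order by RPKM was Mcl1, Bok, Bcl2l1, Bcl2l2, Bad, Bid, Bcl2l11, Bak1, Bik and Bcl2. Neighbours in this order had separate counting intervals except Bad and Bid, and Bcl2l11 and Bak1. In the mutant, Bcl2l2 stood above Bcl2l1 and Bak1 above Bcl2l11, but within each of these pairs the mutant intervals overlapped, as did those of Bad and Bid. The separation of neighbours refers to counting error and not to a spread between mice. The order also depends on the gene length in the deposited values. With the length of all annotated exons together, an alternative added after the data were seen, Bcl2l2 (21.5) stood above Bcl2l1 (19.5) in the control as well, and Bcl2l11 (3.59) moved below Bak1 (7.15) and Bik (4.04). Mcl1 (84.6) and Bok (53.9) stayed the highest on this scale and Bcl2 (1.45) the lowest.

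**Figure D2:**
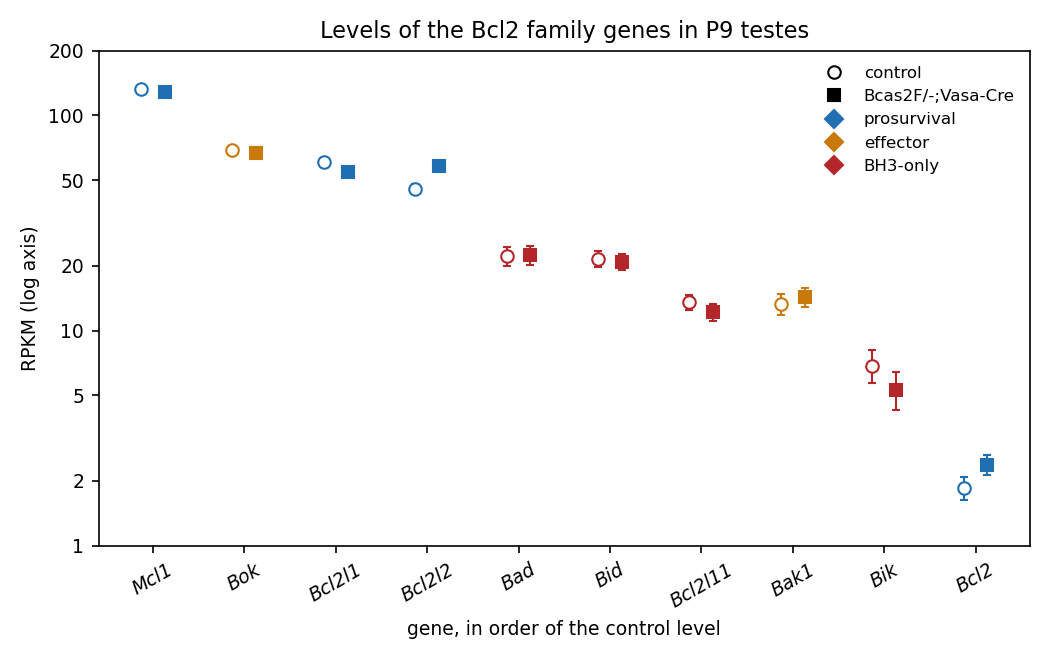
RPKM (y axis, log scale) of the 10 Bcl2 family genes in the control library (open circles) and the Bcas2F/-;Vasa-Cre library (filled squares), coloured by role; bars are 95% counting intervals, smaller than the symbol at high levels. Levels run from 133 for Mcl1 to 1.85 for Bcl2 in the control, and each gene's pair of points lies close together on this scale.

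The prosurvival members were followed first. Mcl1 encodes a short-lived protein that restrains Bak1 and binds Bcl2l11. It is annotated as ENSMUSG00000038612 on chromosome 3 from 95658788 to 95663176. Its RPKM was 133 in control and 128 in mutant testes, from 5763 and 5381 reads. It alone made up 34.3% of the summed RPKM of the 10 members in the control and 33.3% in the mutant. The log2 ratio was −0.055 with an interval from −0.11 to −0.002, inside the range of −0.29 to 0.21 of genes of like level. With rescaled RPKM the ratio was −0.027, a larger shift than the distance of the upper bound from 0.

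Bcl2l1 encodes BCL-XL, a prosurvival protein known to be needed for the survival of fetal germ cells. The gene, ENSMUSG00000007659, lies on chromosome 2 from 152780668 to 152831728. RPKM was 60.6 in control and 54.5 in mutant testes, from 1778 and 1551 reads. The level was thus lower in the mutant library, with a log2 ratio of −0.15 and an interval from −0.25 to −0.055. Genes of like level ranged from −0.28 to 0.23, so the value lay within their spread, and 2860 tested genes (19.3%) were as low or lower.

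Bcl2l2, which encodes BCL-W, was the member farthest above 0. Males without it are known to lose their germ cells and, later, Sertoli cells. The gene, ENSMUSG00000089682, lies on chromosome 14 from 54883377 to 54888234. RPKM was 45.7 in control and 58.1 in mutant testes, from 1915 and 2362 reads, a fold of 1.27. The log2 ratio was 0.34 with an interval from 0.26 to 0.43. Genes of like level ranged from −0.27 to 0.18, which left Bcl2l2 as the 1 member outside that range. Among all tested genes, 760 (5.12%) were as high or higher. Another annotated protein-coding gene on the same strand, Gm20521, shares 594 exon bases with Bcl2l2, 13.3% of its exon length, and continues over its downstream neighbour Pabpn1. Gm20521 was listed at 0 in both libraries. For Pabpn1, a poly(A)-binding protein gene named here after its values were seen, RPKM was 72.2 in control and 85.6 in mutant testes, with a log2 ratio of 0.24. The part of the shared exons in these values was not tested.

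Bcl2, the founding prosurvival gene, had the lowest level among the members. The gene, ENSMUSG00000057329, spans chromosome 1 from 106538178 to 106714274. RPKM was 1.85 in control and 2.37 in mutant testes, from 265 and 329 reads. The reads are many for this RPKM because the gene length in the deposited values, 7191 bases, is that of the longest annotated transcript. The log2 ratio of RPKM + 1 was 0.24, and that of RPKM alone was 0.36 with an interval from 0.12 to 0.59. At this level genes ranged from −0.46 to 0.56, so Bcl2 was higher in the mutant library by more than counting error but lay within the spread of its neighbours.

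The effectors among the members are Bok and Bak1. Bok encodes an effector first found in ovary and abundant in reproductive tissues. The gene, ENSMUSG00000026278, lies on chromosome 1 from 93685660 to 93695764. Its RPKM was 69.3 in control and 67.2 in mutant testes, the second highest level among the members in both libraries. The log2 ratio was −0.043, from 1976 and 1861 reads, with an interval from −0.14 to 0.049. Bak1 encodes BAK, a pore-forming protein resident in the outer membrane. It is annotated as ENSMUSG00000057789 on chromosome 17 from 27019810 to 27029009. RPKM was 13.2 in control and 14.3 in mutant testes, from 343 and 359 reads. The log2 ratio was 0.10 with an interval from −0.11 to 0.33. Neither effector differed between the libraries by more than counting error.

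The remaining effector of the family, Bax, is known to be needed for the death of germ cells in the first wave of spermatogenesis. It was not one of the 10 members and is named for its role after its values were seen. RPKM was 85.4 in control and 71.8 in mutant testes, from 1479 and 1207 reads. With a log2 ratio of −0.25 and an interval from −0.36 to −0.14, Bax was lower in the mutant library than counting error allows, yet short of 1.5-fold.

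BH3-only members were at lower levels than most others. Bid links death receptors to mitochondria once caspase-8 has cleaved it, and its RPKM was 21.5 in control and 20.8 in mutant testes, from 528 and 496 reads. The gene is ENSMUSG00000004446 on chromosome 6 from 120891930 to 120916853. Its log2 ratio of −0.045 had an interval from −0.23 to 0.13. Bad, held inactive by phosphorylation under survival signals, had 22.2 in control and 22.4 in mutant testes, from 398 and 391 reads. The gene is ENSMUSG00000024959 on chromosome 19 from 6941861 to 6951899, and its log2 ratio was 0.017 with an interval from −0.19 to 0.22. These 2 genes stood closest to equal levels among the BH3-only members.

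Bcl2l11 encodes BIM, which binds all prosurvival members and is made in several spliced forms of different potency. The gene, ENSMUSG00000027381, lies on chromosome 2 from 128126038 to 128162547. RPKM was 13.5 in control and 12.2 in mutant testes, from 574 and 500 reads. The log2 ratio was −0.145 with an interval from −0.33 to 0.020, so a fold between 0.795 and 1.01 was left by counting error alone. Of the 5 annotated coding isoforms with a complete coding sequence, 4 held the BH3 core printed above and 1 did not. A value per gene does not resolve these forms, so a shift between them could leave the RPKM as it is. Whether isoform use differed was not analysed here.

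Bik, a BH3-only protein of the endoplasmic reticulum, was the member farthest below 0. The gene, ENSMUSG00000016758, lies on chromosome 15 from 83526862 to 83544634. RPKM was 6.815 in control and 5.27 in mutant testes. It had the fewest reads, 128 and 96, and the widest interval, from −0.77 to 0.021 around a log2 RPKM ratio of −0.37. On the scale of RPKM + 1 the value was −0.32, within the range of −0.40 to 0.38 of genes of like level, and 974 tested genes (6.57%) were as low or lower. A difference in Bik was not detectable at this depth, which leaves folds from 0.587 to 1.01 within counting error.

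**Figure D3:**
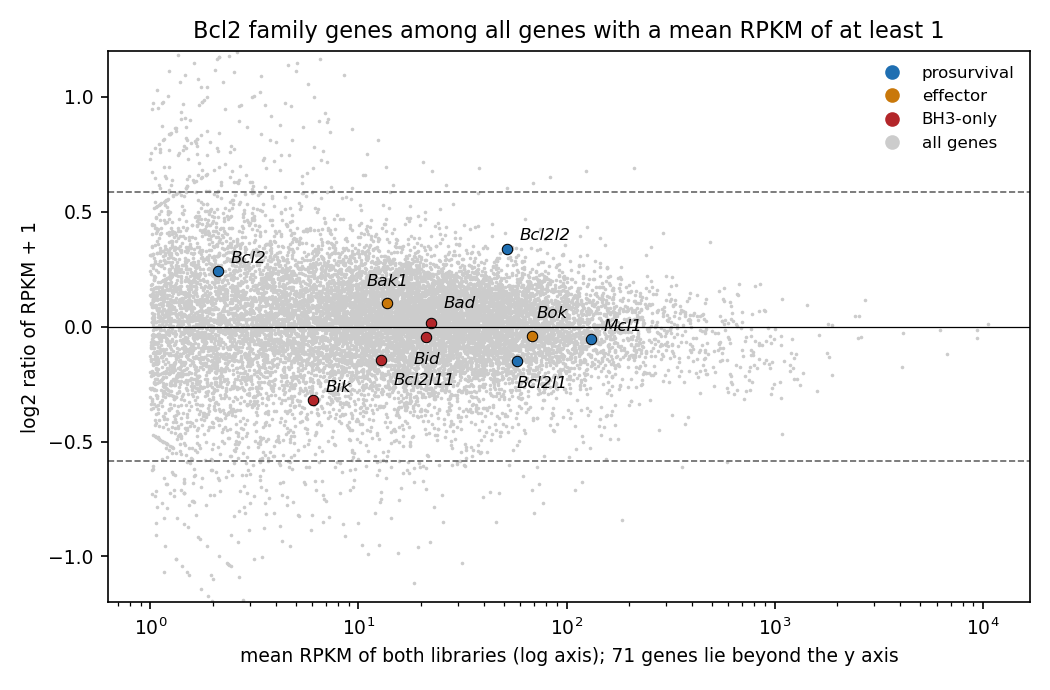
The log2 ratio of RPKM + 1, Bcas2F/-;Vasa-Cre over control (y axis), against mean RPKM (x axis, log scale) for 14831 genes in grey, with the 10 Bcl2 family genes coloured by role; dashed lines mark 1.5-fold, and 71 genes lie beyond the y axis. Members lie within the cloud of genes of like level except Bcl2l2, at its upper edge.

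Summed by role, none of the 3 groups of members differed between the libraries by more than counting error. The summed RPKM of the 4 prosurvival genes was 241 in control and 243 in mutant testes. This gave a log2 ratio of 0.010 with an interval from −0.031 to 0.052, in which the higher Bcl2l2 was offset by the lower Bcl2l1 and Mcl1. The 2 effectors among the members summed to 82.5 and 81.5, with a log2 ratio of −0.018 and an interval from −0.10 to 0.066. The 4 BH3-only genes summed to 64.0 and 60.7, with a log2 ratio of −0.078 and an interval from −0.18 to 0.029. The ratio of prosurvival to BH3-only RPKM was 3.77 in control and 4.0 in mutant testes, and that of prosurvival to effector RPKM was 2.92 and 2.98. All 3 intervals crossed 0. These sums are of RNA and carry no weight for the activity of each protein. They cover the members only and leave out Bax (85.4 in control and 71.8 in mutant testes). By RPKM Bax stood above Bok in both libraries, but the counting intervals of this pair were not compared. The BH3-only gene Bmf (30.4 and 31.4) and other family genes are also left out. The ratios between roles therefore describe these members and not the whole family.

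Other genes of apoptosis were then examined as lists, of which 49 of 56 genes passed the minimum RPKM. With the pseudocount of 1, none was past 1.5-fold in either direction, against the 1.69% and 1.57% of all genes given above. With a pseudocount of 0.1 or 0.01, 1 gene, Endog, was lower past 1.5-fold. Their log2 ratios had a median of 0.037, with 18 genes below 0 and 31 above (46.3% and 53.7% of all tested genes were below and above 0), and ran from −0.49 for Endog to 0.34 for Cflar. Among other family members, 4 of 9 tested genes were lower and 5 higher, with a median of 0.007. The highest levels among them were those of Bnip3l (198 in control and 203 in mutant testes), a mitophagy receptor, and of its relative Bnip3 (133 and 131).

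Downstream of the mitochondrion, the 7 genes of the apoptosome and of released proteins had a median log2 ratio of 0.037, with 3 lower and 4 higher. The RPKM of Cycs, which encodes cytochrome c, was 219 in control and 240 in mutant testes, and that of Aifm1, which encodes apoptosis-inducing factor, was 57.6 and 53.6. Endog, an endonuclease gene named after its values were seen, had 3.4 and 2.14 from 72 and 44 reads. The 3 outer membrane channel genes were all slightly higher, with log2 ratios from 0.030 to 0.066, and the highest levels were those of Vdac3 (396 and 410) and Vdac2 (215 and 219). Of the 6 executioners and substrates, 3 were lower and 3 higher, with a median of −0.002. Parp1, a DNA repair gene whose protein caspases cleave, had 99.99 and 86.3, and the executioner Casp6 37.2 and 35.8.

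The 4 listed genes of inhibitor of apoptosis proteins, Xiap, Birc2, Birc3 and Birc6, had log2 ratios from 0.077 to 0.18, with a median of 0.12 and none past 1.5-fold. The interval of Birc3 ran across 0, from −0.088 to 0.35. Birc5, of the same protein family but not on the list, had a log2 ratio of 0.013. Birc2 stood at 60.9 RPKM in control and 69.2 in mutant testes, and Xiap, whose protein binds and blocks caspases, at 33.1 and 36.3. In the death receptor pathway 6 of 8 tested genes were higher and 2 lower, with a median of 0.088. The receptor gene Tnfrsf1a had 114 and 115, and Cflar, which encodes an inhibitor of caspase-8 activation, 36.5 and 46.6. Regulators of the family members were split evenly, 6 lower and 6 higher, with a median of −0.003. The highest were Ywhaz, a 14-3-3 protein gene, at 552 and 524, and Dynll1, whose protein binds BIM, at 297 and 269.

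Markers of the cell types in the testis were examined beside the family, since several differed between the 2 libraries. All 7 germ cell markers were lower in the mutant library, with a median log2 ratio of −0.25 and a summed RPKM of 378 in control and 297 in mutant testes. Of the 5 markers of differentiating spermatogonia 4 were lower (median −0.46, summed 230 and 165), and of prophase I 4 of 4 (median −0.47, summed 84.1 and 54.2). Sall4, Stra8, Dmrtb1 and Smc1b were past 1.5-fold. Sertoli cell markers were higher in 5 of 6 tested genes (median 0.11, summed 3337 and 3609), with Rhox5 listed at 0 in both libraries and the highest levels in Clu (2593 and 2813) and Amhr2 (306 and 302). Leydig cell markers were higher in 4 of 6 (median 0.20, summed 387 and 431), with Cyp17a1 past 1.5-fold. Medians were −0.049 for peritubular myoid cells (summed 523 and 489, with Acta2 and Tagln highest), −0.13 for endothelial cells (39.5 and 37.1, Cdh5 and Pecam1) and −0.19 for macrophages (47.7 and 42.4, C1qa and Mrc1). Neutrophil markers were past 1.5-fold lower in 4 of 4 tested genes, with a sum of 25.8 and 3.12, against 1.69% of all genes. Reads were 73 and 5 for S100a8, 101 and 4 for S100a9, 67 and 6 for Ngp, and 46 and 21 for Camp. S100a8, S100a9 and Ngp were below 1 RPKM in the mutant and passed the minimum only through the control. The minimum thus favoured a lower value for them. Red cell markers were lower in 5 of 6 (median −0.32, summed 980 and 944), with Slc4a1 and Hbb-bt past 1.5-fold. Most of the sum came from Hbb-bs (551 and 596), the only one that was higher. Slc4a1 had 15.7 and 0.607 RPKM from 373 and 14 reads, and also passed the minimum only through the control. For these markers too, the number of cells and the RNA per cell cannot be told apart. The part of the marker differences in the values of the Bcl2 family genes was not tested.

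**Figure D4:**
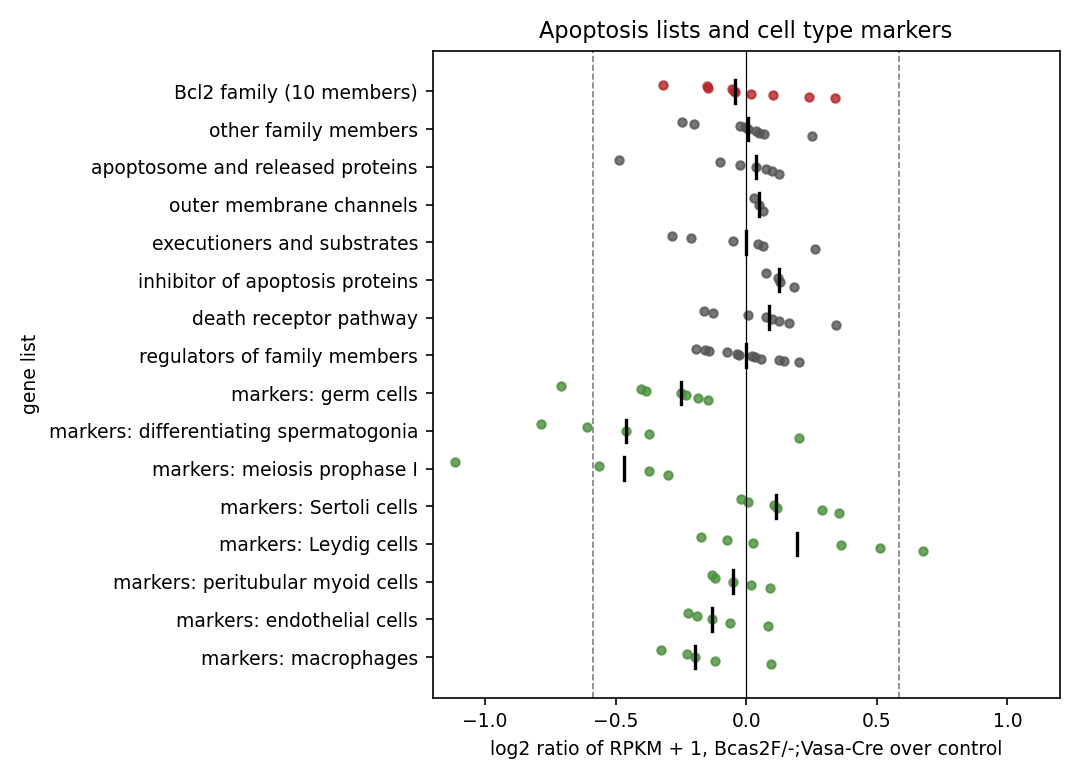
The log2 ratio of RPKM + 1, Bcas2F/-;Vasa-Cre over control (x axis), of each tested gene in the Bcl2 family (red), the wider apoptosis lists (grey) and cell type markers (green), 1 row per list; black bars are medians and dashed lines mark 1.5-fold. The apoptosis lists lie around 0 and the germ cell, spermatogonia and prophase I markers mostly to the left; neutrophil and red cell markers, with values down to −3.38, are not drawn.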

How the data were processed

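P9 testes of both genotypes were sequenced as 1 library each. The authors aligned paired-end reads with TopHat2 (version 2.0.9, build mm10 in the submitters' processing notes), used HTSeq to count the reads of each gene and deposited RPKM values, the only unit used here. Annotation release, gene lengths and strand setting are not given in the sources used here. RPKM does not correct for RNA composition.

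Of 39695 entries, 37606 matched GENCODE M21. Log2 ratios of RPKM + 1 were taken where the mean RPKM was at least 1. Reads were recovered from the steps of the RPKM values. Of 3777 single-transcript genes, 2759 gave the same library sizes, and recovered reads made up 96.6% and 96.49% of them. A length differing from the annotation could make the reads of a gene wrong by a whole factor and its interval too wide or narrow. Read recovery and the count of genes past 1.5-fold were tested on simulated libraries, and the intervals were not. The simulated libraries used the gene lengths from the recovery, so they could not show an error in those lengths. Members and lists were chosen with earlier results of these data known. Named were all members, Bcas2, list genes past 1.5-fold and otherwise the 2 highest of each list, with exceptions marked. The RPKM of Bcl2a1a and Bcl2a1d was not analysed here. Motifs were searched in GENCODE M21 coding sequences translated for this purpose, 1 transcript per gene. Alternatives were a pseudocount of 0.1 or 0.01, log2 ratios shifted to a median of 0, RPKM values scaled to sum to 1000000, and no minimum or a minimum of 5 on mean RPKM. Software was matplotlib 3.10.9, pandas 2.3.3, scipy 1.17.1 and numpy 2.4.6 under Python 3.11.15.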

Additional observations from a re-analysis of the deposited data

How the results depend on the processing

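No member passed 1.5-fold under any of the 6 alternatives, the farthest value being −0.371 for Bik, and the median of the members ran from −0.059 to −0.017. The largest shift of a member's log2 ratio was 0.114 for Bcl2, which ran from 0.225 to 0.354, and the next 0.052 for Bik. With pseudocounts of 0.1 and 0.01, 1 gene of the wider lists, Endog, was lower past 1.5-fold in each case, since a smaller pseudocount shrinks low values less. The sign of a sum near 0 changed in 2 cases, to −0.005 for the prosurvival genes with the median set to 0 and to 0.01 for the effectors with rescaled RPKM. Past 1.5-fold, the number of all genes lower and higher was 457 and 454 with a pseudocount of 0.1, 485 and 491 with 0.01, 356 and 434 with rescaled RPKM, 468 and 511 without a minimum and 104 and 46 with a minimum of 5, against 251 and 233. Bcl2 did not pass a minimum of 5. Levels set by the length of all annotated exons, added after the data were seen, were lower for all 10 members. This follows from the arithmetic, since that length exceeds the one in the deposited values for each member. No paired analysis was possible because each genotype had 1 library. Depth limits Bik most, at 128 and 96 reads.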

Other observations

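Exons of 4 further members overlap an annotated gene on the opposite strand, and without a stated strand setting reads from the shared bases cannot be assigned. Bad shares 524 exon bases (20.5% of its exon length) with Gpr137, whose RPKM was 12.9 in control and 12.1 in mutant testes. Bak1 shares 437 bases (18.2%) with Ggnbp1, at 4.403 and 5.97. Bid shares 628 bases (17.7%) with its relative Bcl2l13, at 9.18 and 9.22. Bcl2 shares 558 bases (6.09%) with the antisense gene D630008O14Rik, listed at 0 in both libraries.

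The annotated coding isoforms differ in how often they keep the BH3 core. All complete coding isoforms of Bcl2l1 (3), Bik (3), Bcl2 (2), Mcl1 (2), Bak1 (2), Bok (2) and Bid (1) held it, and Bcl2l11 was the 1 member with isoforms of both kinds. In the 6 isoforms of Bad, the wider pattern was present in each.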
